A study of Mus musculus with 4 samples.

Results

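The 10 genes described here make up the core of the mouse MHC class II presentation pathway: H2-Aa, H2-Ab1, H2-Eb1, Cd74, Ciita, H2-DMa, H2-DMb1, H2-DMb2, H2-Oa and H2-Ob. They were chosen by name from the 55487 genes of the count table, and all 10 were present and passed the filter on low counts that left 22485 genes for testing. RNA was measured in whole mammary fat pad (MFP) of female c57bl/6j mice, with 2 libraries from aged animals of 14 months and 2 from young animals of 8 weeks. The labels name no transgene, treatment or tumor, and call the libraries biological replicates without saying whether animals were pooled. Where they are not separate animals, the p-values measure only the spread between these libraries. The comparison asks which genes differ with age in the MFP, the fatty tissue into which the study injected melanoma cells.

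MHC class II molecules carry peptides from engulfed proteins to the cell surface, where CD4 T cells read them. Each is a pair of an alpha and a beta chain that is assembled with the invariant chain, encoded by Cd74, and loaded with peptide in late endosomes with the help of H2-DM. In B cells and some dendritic cells a second pair, H2-O, restrains H2-DM. The transactivator encoded by Ciita switches on most of the set. B cells, dendritic cells and many macrophages express these genes, and the inguinal mammary fat pad normally contains a lymph node.

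Library totals ran from 68803304 to 98402403 counts, so that 3 counts amounted to between 0.0337 and 0.0407 CPM (counts relative to a library total scaled by the trimmed mean of M values). The defining markers of the labelled tissue were present, with all 6 adipocyte and all 7 mammary epithelial genes listed above this level in every library. Young replicate 1 stood apart from the other libraries. Its summed level of 5 pan-leukocyte markers, in CPM per kilobase of exon (CPM per kb), was 356, against 21.5 in young replicate 2 and 27.4 and 60.0 in aged replicates 1 and 2. For this reason the edgeR comparison of each member is given with and without that library. All 8 skeletal muscle markers listed were higher in both aged than in both young libraries, beside 23.3% of all genes tested, and their part in the results was not tested.

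The classical class II chains were present in every MFP library, at 36.1 to 310 CPM. H2-Aa, the alpha chain of the I-A molecule, was at 97.8 and 147 CPM in aged replicates 1 and 2 and at 310 and 42.2 CPM in young replicates 1 and 2. Both aged libraries thus lay between the 2 young ones. H2-Ab1, its beta chain partner, was at 77.0 and 122 CPM in the aged and 250 and 36.1 CPM in the young MFP. H2-Eb1, the beta chain of the I-E molecule, had 81.7 and 127 CPM in the aged and 234 and 37.2 CPM in the young MFP. The order of the 4 libraries was the same for all 3 chains: young replicate 1, aged replicate 2, aged replicate 1, young replicate 2. Young replicate 1 exceeded young replicate 2 by 7.34-fold for H2-Aa, 6.93-fold for H2-Ab1 and 6.27-fold for H2-Eb1, whereas the aged libraries differed by at most 1.59-fold. In the edgeR quasi-likelihood fit the log2 fold change of aged over young was -0.52 for H2-Aa (SE 0.96, adjusted p = 0.832), -0.52 for H2-Ab1 (SE 0.95, adjusted p = 0.829) and -0.37 for H2-Eb1 (SE 0.90, adjusted p = 0.873). Without young replicate 1 the sign turned, to 1.54 for H2-Aa (SE 0.32, adjusted p = 0.295), 1.47 for H2-Ab1 (SE 0.35, adjusted p = 0.310) and 1.49 for H2-Eb1 (SE 0.34, adjusted p = 0.301). That fit has 1 young library, which is assumed to vary like the aged ones.

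**Figure D1:**
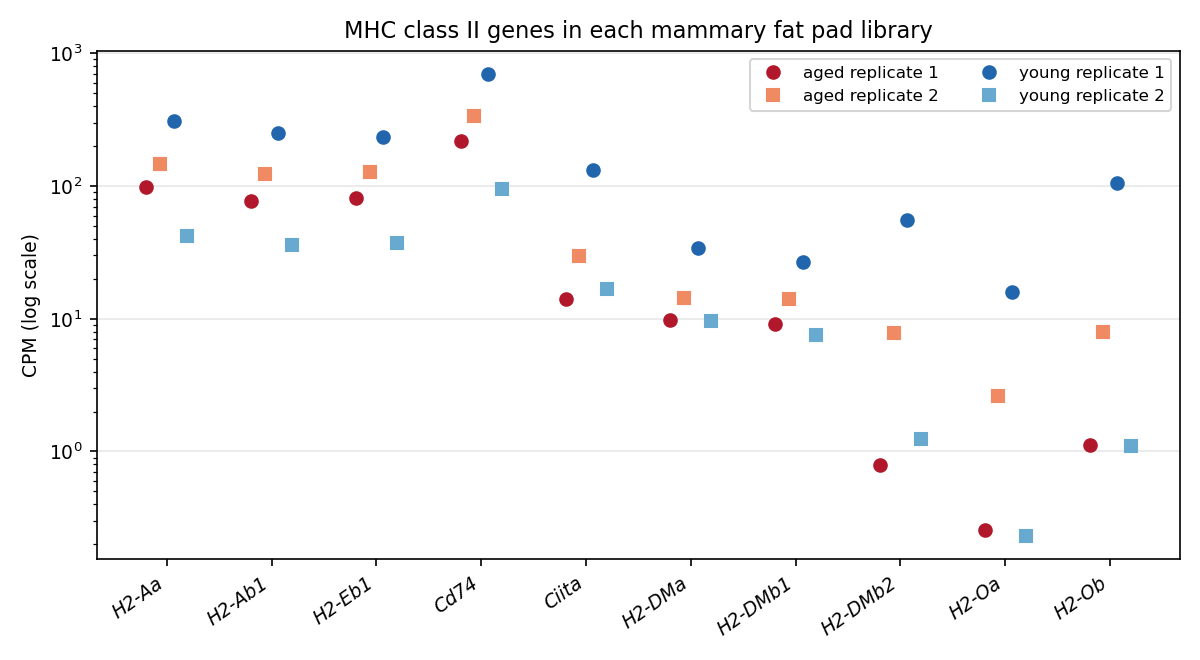
CPM on a log axis of each of the 10 class II genes, with 1 point per library (red, aged; blue, young; circles, replicate 1; squares, replicate 2). Young replicate 1 is the highest point for all 10 genes, and the aged libraries lie between the young ones for 8 of them.

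H2-Ea, which would encode the alpha chain partner of H2-Eb1, is known to be inactive in C57BL/6 mice. It had 3 counts in aged replicate 2 and 0 counts in the other 3 libraries, at or under the floor of 3 counts. H2-Eb2, a second E beta gene, was low and very uneven. It had 17 and 182 counts in the aged against 1643 and 2 counts in the young libraries, a far wider spread than that of H2-Eb1 across the same libraries. Its log2 fold change was -3.15 (SE 2.59, adjusted p = 0.627, edgeR) and turned to 5.30 (SE 2.02) without young replicate 1, against a remaining young library that is under the floor.

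The class II chain genes among the members lie between 34092340 and 34316674 on chromosome 17 (GRCm38), and their promoters share short sequence elements to which the regulatory factor X and NF-Y complexes are known to bind, recruiting the transactivator. The RefSeq promoter table (GRCm38.p6, from 250 bases before to 50 after each start) lists 7 of the 10 genes. The stretches shown lie before the start of the classical chain genes H2-Aa and H2-Eb1 and of the more uneven H2-Eb2, H2-Oa, H2-Ob and H2-DMb2, so that both kinds can be compared. Capitals mark GATTGG, the NF-Y type box, and, where present, the letters GNAAC at 20 to 30 bases before it. Both patterns were picked after these promoters had been seen.
H2-Aa, chr17:34287867-34287918, minus strand: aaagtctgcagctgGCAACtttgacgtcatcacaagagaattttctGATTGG
H2-Eb1, chr17:34305761-34305812, plus strand: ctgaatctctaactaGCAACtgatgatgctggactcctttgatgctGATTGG
H2-Eb2, chr17:34325528-34325579, plus strand: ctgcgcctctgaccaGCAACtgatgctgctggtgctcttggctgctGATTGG
H2-Oa, chr17:34092289-34092340, plus strand: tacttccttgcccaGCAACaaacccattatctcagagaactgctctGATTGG
H2-Ob, chr17:34238801-34238852, plus strand: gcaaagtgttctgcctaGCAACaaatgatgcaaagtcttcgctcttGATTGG
H2-DMb2, chr17:34145112-34145163, plus strand: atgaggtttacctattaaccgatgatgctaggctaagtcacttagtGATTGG

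The spaced pair was present on the gene's strand in H2-Aa, H2-Eb1, H2-DMb1, H2-Oa and H2-Ob, with 24 to 27 bases between its parts, and in H2-Eb2 with 26. Across 32851 promoter windows of the same table, searched on both strands, 0.651% held the pair and 16.1% held GATTGG. H2-DMb2 had GATTGG without the pair, and in neither of the 2 starts listed for H2-DMa was the pair found. The letters therefore did not divide the genes as their levels did: H2-Aa and H2-Ob both have the pair, yet young replicate 1 exceeded young replicate 2 by 7.34-fold for the first and 95.6-fold for the second. A match in letters is not evidence of binding.

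Ciita, the transactivator itself, was at 14.1 and 29.8 CPM in the aged and at 133 and 16.8 CPM in the young MFP. Young replicate 1 was 7.92-fold above young replicate 2, close to the ratios of the classical chains. The other members were not all close to it, from 3.50-fold for H2-DMa to 95.6-fold for H2-Ob. Unlike the classical chains, however, Ciita was lower in aged replicate 1 than in young replicate 2, at 0.842 of its level, where H2-Aa was 2.32-fold higher. The log2 fold change was -1.77 (SE 1.07, adjusted p = 0.557, edgeR) over all 4 libraries and 0.39 (SE 0.48, adjusted p = 0.767) without young replicate 1. Ciita has several promoters used by different cell types, which counts per gene do not separate. The gene spans 10480059 to 10528418 on chromosome 16 and overlaps Dexi, which lies on the other strand.

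Cd74, the invariant chain that fills the peptide groove until loading, was the most abundant of the 10 genes. It was at 219 and 336 CPM in the aged and 701 and 94.4 CPM in the young MFP, the same order as H2-Aa. The gene spans 60803848 to 60812652 on chromosome 18 (GRCm38) and hosts Mir5107. Per length it stood at 130 and 200 CPM per kb in the aged and 418 and 56.2 CPM per kb in the young libraries. Its ratio to H2-Aa hardly moved: Cd74 per H2-Aa, both in CPM per kb, was 5.06 and 5.17 in the aged against 5.12 and 5.06 in the young MFP. The ratio of H2-Ab1 to H2-Aa was similarly even, at 1.16 and 1.23 in the aged against 1.19 and 1.26 in the young libraries. Cd74 itself had a log2 fold change of -0.52 (SE 0.97, adjusted p = 0.835, edgeR), which became 1.56 (SE 0.36, adjusted p = 0.301) without young replicate 1.

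The H2-DM genes, whose products swap the invariant chain remnant for peptide, separated into an even and an uneven part. H2-DMa, the alpha chain, was at 9.71 and 14.5 CPM in the aged and 33.9 and 9.69 CPM in the young MFP. H2-DMb1, one of the beta chains, was at 9.17 and 14.1 CPM in the aged and 26.7 and 7.52 CPM in the young MFP. Both genes varied less than the classical chains, with young replicate 1 at 3.50-fold and 3.54-fold of young replicate 2. Aged replicate 1 was level with young replicate 2 for H2-DMa, at 1.00-fold. H2-DMb2, the other beta chain gene, was at 0.795 and 7.78 CPM in the aged and at 55.6 and 1.25 CPM in the young MFP. That is a 44.6-fold gap between the young libraries and a 9.79-fold gap between the aged ones. The share of H2-DMb2 in the sum of both beta chain genes, per length, was 7.70% and 34.8% in the aged against 66.7% and 13.8% in the young MFP. Of the 50-base stretches of the H2-DMb1 transcripts, 22.7% also occur in H2-DMb2, so reads could have been assigned to the wrong copy, and H2-DMa overlaps Brd2 on the other strand. The split between the copies is therefore uncertain, above all where H2-DMb2 is low.

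The H2-O genes, which encode the restraining pair linked to B cells, varied about as widely as H2-DMb2. H2-Oa, the alpha chain, was at 0.257 and 2.61 CPM in the aged and at 15.9 and 0.230 CPM in the young MFP. In counts this was 21 and 232 in the aged against 1302 and 17 in the young libraries, so the lower value of each age rests on few reads. H2-Ob, the beta chain, was at 1.11 and 7.91 CPM in the aged and at 105 and 1.10 CPM in the young MFP. Aged replicate 1 and young replicate 2 were level for both genes, with ratios of 1.12 for H2-Oa and 1.01 for H2-Ob. Set against H2-DMa in CPM per kb, the sum of H2-Oa and H2-Ob was 0.138 and 0.792 in the aged against 3.13 and 0.131 in the young MFP. The sum of these 2 genes thus exceeded H2-DMa alone in young replicate 1 and in no other library. This ratio leaves out the beta chain genes of H2-DM. In young replicate 1, H2-DMb1 and H2-DMb2 were at 15.9 and 31.8 CPM per kb, beside 11.3 for H2-Oa and 19.5 for H2-Ob.

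**Figure D2:**
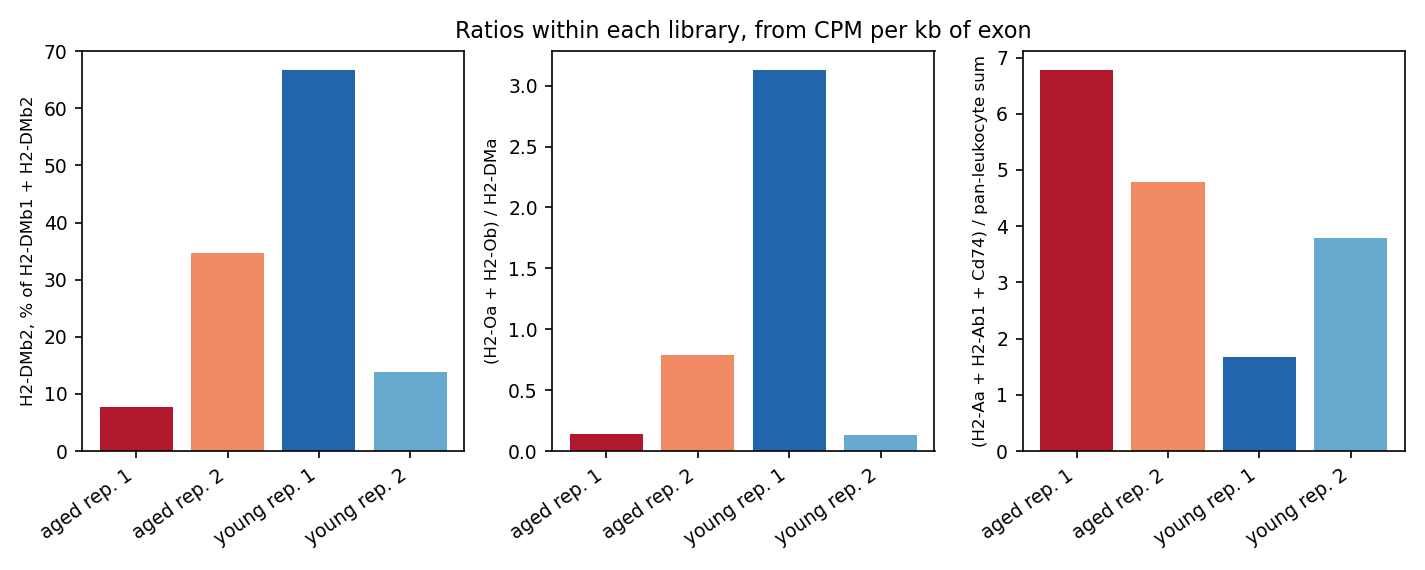
Ratios within each library from CPM per kb, 1 bar per library: H2-DMb2 as a percent of H2-DMb1 plus H2-DMb2 (left), H2-Oa plus H2-Ob over H2-DMa (middle), and H2-Aa, H2-Ab1 and Cd74 over the 5 pan-leukocyte markers (right). The first 2 ratios are highest in young replicate 1, at 66.7% and 3.13, and the third is lowest there, at 1.67.

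Across the 10 genes, no age difference passed the test. The edgeR fit called 0 of 10 members at an adjusted p under 0.05, beside 0% of all 22485 genes, and 0 of 10 had an unadjusted p under 0.05, beside 10.5%. DESeq2 called 0 of 10 members as well (smallest adjusted p 0.385, for Ciita), beside 3.67% of the genes with an adjusted p in that test. The fitted direction was lower in the aged MFP for 10 of 10 genes, and their median log2 fold change was -0.70 beside -0.04 over all genes tested. None of the 10 separated the ages, since the aged and young values overlapped for each, beside 46.1% of all genes without overlap. The standard errors ran from 0.67 to 2.22 on the log2 scale, and no difference reached 2 of its standard errors. The widest were those of H2-DMb2 (log2 fold change -2.73, SE 2.01, adjusted p = 0.598), H2-Oa (-2.49, SE 2.10, adjusted p = 0.633) and H2-Ob (-3.55, SE 2.22, adjusted p = 0.563).

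The direction rested on young replicate 1. Without it, 10 of 10 genes were fitted as higher in the aged MFP, and their median log2 fold change was 1.51 beside 0.02 over all genes. Both aged libraries lay above the remaining young library for 8 of 10, beside 38.4% of all genes, the exceptions being Ciita and H2-DMb2. This number only restates that young replicate 2 was the lowest library for those 8 genes. H2-Aa, H2-Ab1, H2-Eb1 and Cd74 had an unadjusted p under 0.05 in this direction, beside 7.31% of all genes, and 0 of 10 passed after adjustment. The other members had standard errors from 0.31 for H2-DMa to 1.56 for H2-Oa, with values from 0.32 for H2-DMa to 2.63 for H2-Oa. Young replicate 1 was left out for its high leukocyte markers, and was also the highest library for all 10 genes. Neither the 8 of 10 nor the unadjusted p-values without it are therefore separate evidence of higher levels in the aged MFP. The shares of all genes cover genes not chosen in this way. Leaving out young replicate 2 instead moved the median to -1.41. Both aged libraries then lay below the remaining young one for 10 of 10, beside 42.3% of all genes. That count only restates that young replicate 1 was the highest library for all 10, and is not separate evidence of an age difference. Without aged replicate 2, the remaining aged library was below both young ones for 2 of 10, beside 35.1%. With 2 libraries per age, the smallest exact two-sided permutation p is 0.333, so no single gene could pass by that test.

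**Figure D3:**
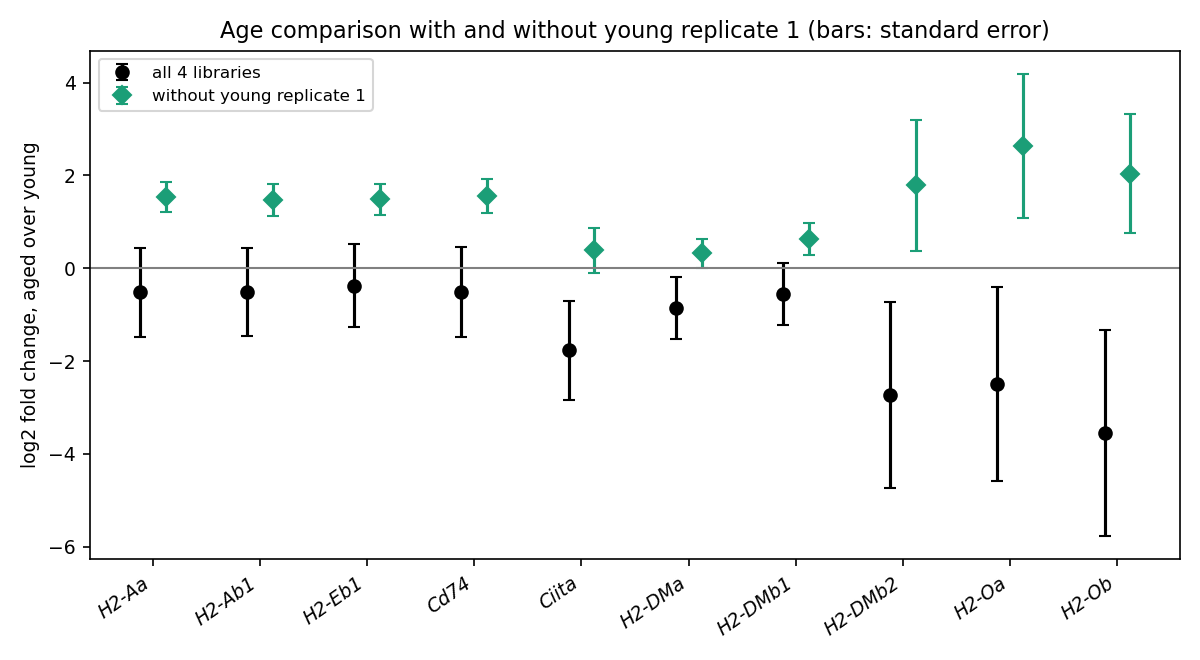
Fitted log2 fold change of aged over young for each of the 10 genes, from all 4 libraries (black circles) and without young replicate 1 (green diamonds), with standard errors as bars. The black points are all below 0 and the green points all above 0.

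Leukocyte markers varied with these genes across the libraries, and in bulk tissue fewer cells of a type and less RNA per cell cannot be told apart. Young replicate 1 was highest for 13 of 14 B cell markers, 8 of 8 T cell markers and 8 of 9 lymph node and follicle markers. The remaining lymph node marker, Ccl21a, was at 0 in every library. Its symbol belongs to 2 gene identifiers, and how reads matching several genes were counted is not given, so the 0 does not show absence. Summed T cell markers were at 4.42 and 28.5 CPM per kb in the aged against 305 and 3.01 in the young MFP. Summed lymph node and follicle markers were at 2.02 and 14.5 CPM per kb in the aged against 169 and 1.18 in the young MFP. In both lists the order was young replicate 1, aged replicate 2, aged replicate 1, young replicate 2, as for H2-Aa. Summed B cell markers were at 64.6 and 736 CPM per kb in the aged against 544 and 14.5 in the young MFP. Aged replicate 2 led that list through Ighm, the immunoglobulin mu chain, at 111 and 1301 CPM in the aged and 319 and 19.3 CPM in the young MFP. The part of these cells in the class II values was not tested.

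Between the young libraries, the gap of the classical chains fell short of the lymphocyte gap and exceeded the macrophage gap. The summed level of H2-Aa, H2-Ab1 and Cd74 was 7.33-fold higher in young replicate 1 than in young replicate 2, and that of H2-Oa, H2-Ob and H2-DMb2 57.9-fold. For the marker lists the same ratio was 37.4 for B cells, 101 for T cells, 4.46 for conventional dendritic cells and 3.38 for macrophages. Single genes carried much of these sums: the ratio was 86.5 for B cells without Ighm, 1.53 for dendritic cells without Ccr7, a homing receptor, and 1.39 for macrophages without Lyz2, lists trimmed after their values were seen. The dendritic cell sum was at 15.4 and 18.8 CPM per kb in the aged against 80.3 and 18.0 in the young MFP. Unlike for H2-Aa, aged replicate 1 thus lay below young replicate 2. Of the 9 dendritic cell markers, edgeR called 0 and DESeq2 called 1, lower in the aged MFP, beside 3.67% of genes. The macrophage sum was at 183 and 252 CPM per kb in the aged against 401 and 119 in the young MFP. Young replicate 1 led it through Lyz2, lysozyme, at 374 CPM, and was highest for 2 of 12 macrophage markers. C1qa, a complement subunit made by tissue macrophages, was at 29.8 and 43.4 CPM in the aged and 32.7 and 16.8 CPM in the young MFP. Aged libraries thus exceeded young replicate 2 for C1qa as for the classical chains, while young replicate 1 lay between the aged ones for C1qa and above both for the chains.

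**Figure D4:**
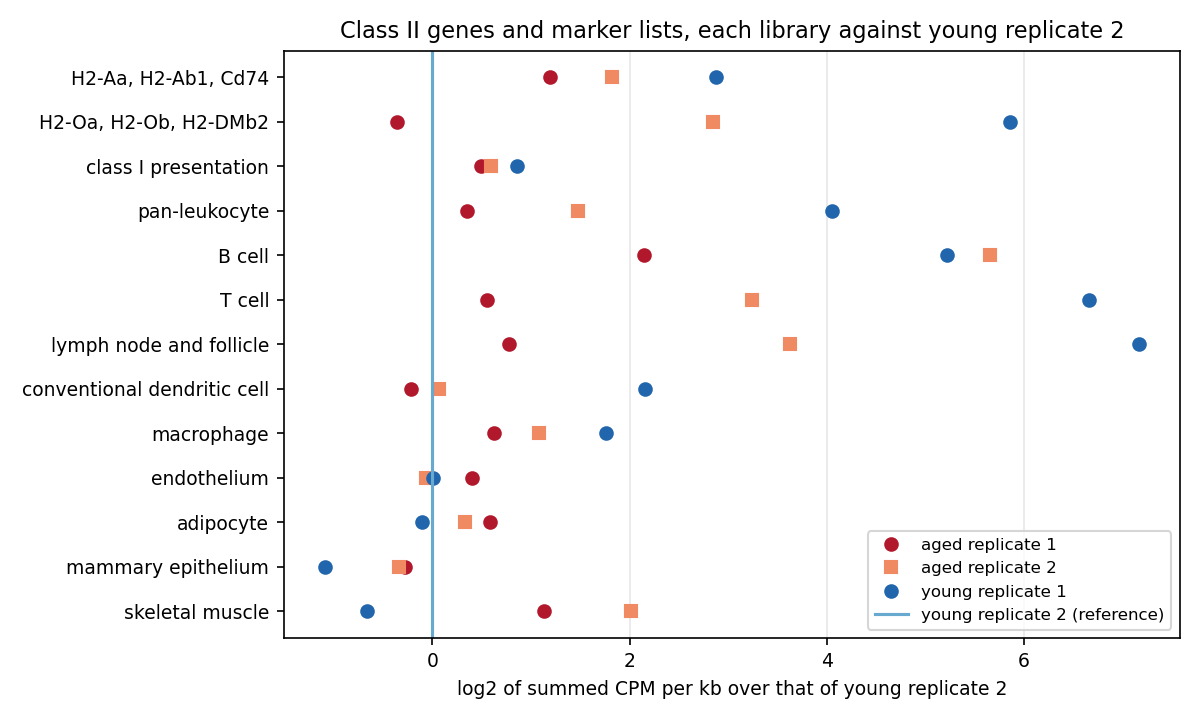
Log2 of the summed CPM per kb of class II groups and marker lists in 3 libraries, relative to young replicate 2 (vertical line at 0). In young replicate 1 H2-Oa, H2-Ob and H2-DMb2 stand at 5.86 and H2-Aa, H2-Ab1 and Cd74 at 2.87, with T cell markers at 6.66 and macrophage markers at 1.76.

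Per leukocyte marker, class II RNA took another order. The sum of H2-Aa, H2-Ab1 and Cd74 over the sum of the pan-leukocyte markers was 6.78 and 4.78 in the aged against 1.67 and 3.78 in the young MFP. Both aged libraries were above both young ones, with a mean log2 difference of 1.18, which was 0.59 without young replicate 1. This ratio has no call, since 2 libraries per age cannot reach a p of 0.05 by permutation. Over the macrophage list in place of the pan-leukocyte list, the same numerator gave 1.02 and 1.14 in the aged against 1.49 and 0.685 in the young MFP, and the ages overlapped. The order therefore depended on the marker list in the denominator.

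Genes that act with the class II set were also without a call by edgeR or DESeq2. In the edgeR fit 3 of the 46 tested, Ctsl, Ctsb and Cd63, had an unadjusted p under 0.05, a smaller share than the 10.5% of all genes. Of the 8 class II transcription factors listed, 0 passed the test, 7 had a fitted value below 0 and the median log2 fold change was -0.20, which was 0.0563 without young replicate 1. Rfx5, a subunit of regulatory factor X, was at 32.8 and 29.3 CPM in the aged and at 49.6 and 34.4 CPM in the young MFP. Nlrc5, the class I counterpart of Ciita, was at 83.9 and 84.0 CPM in the aged and at 221 and 67.2 CPM in the young MFP. In summed CPM per kb, young replicate 1 exceeded young replicate 2 by 1.58-fold for these 8 factors, against 7.33-fold for H2-Aa, H2-Ab1 and Cd74. The list leaves out Ciita, at 7.92-fold, and Nlrc5 alone was at 3.29-fold.

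Of the 10 processing and turnover genes, 0 passed and the median log2 fold change was 0.15, or 0.40 without young replicate 1. Both aged libraries lay above both young ones for 5 of the 10, beside 23.3% of all genes. That number was 3 with upper quartile scaling, beside 4646 of all 22485 genes. It was also 3 with total counts only, beside 3014 of 22485, and with no filter, beside 6398 of 34805. With total counts only the list median was -0.04. Ctss, cathepsin S, which trims the invariant chain, was at 17.5 and 36.3 CPM in the aged and 89.6 and 9.12 CPM in the young MFP, in the order of Cd74. Ctsl, cathepsin L, was at 166 and 184 CPM in the aged and at 122 and 91.6 CPM in the young MFP, a log2 fold change of 0.72 (SE 0.20, adjusted p = 0.418, edgeR) that was 0.93 (SE 0.21) without young replicate 1. Marchf1, a ubiquitin ligase that removes class II molecules from the surface, was at 4.45 and 8.27 CPM in the aged and 32.0 and 4.82 CPM in the young MFP. Within this list, then, Ctss and Marchf1 were highest in young replicate 1, and Ctsl separated the ages without passing the test.

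In the interferon gamma axis, the signal best known for inducing Ciita, 0 of 9 tested genes passed, and the median log2 fold change of -0.47 turned to 0.28 without young replicate 1. Irf8, a transcription factor of B cells and dendritic cells, was at 12.7 and 26.3 CPM in the aged and 114 and 13.5 CPM in the young MFP, in the same order of libraries as Ciita. Ifng itself was too low to be tested, at no more than 0.180 CPM in any library. Of 6 costimulation genes 0 passed, and the median of -1.41 turned to 0.71 without that library, with 6 of 6 then higher. Cd40, through which T cells activate antigen presenting cells, was at 0.893 and 3.05 CPM in the aged and 24.5 and 1.10 CPM in the young MFP. For 12 class I presentation genes, which nearly all cells express, 0 passed and the median of -0.09 likewise turned to 0.34, with 11 of 12 then higher. B2m, the light chain of class I, ranged from 339 to 664 CPM over the 4 libraries, a much narrower span than that of H2-Aa.

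The genes whose pattern over the 4 libraries was nearest to that of the classical chains were sought among 16425 genes with a mean of at least 1 CPM. Likeness was the root mean square distance, on the log2 scale, from the median centred profile of H2-Aa, H2-Ab1, H2-Eb1 and Cd74, which themselves lay within 0.073 of it. The nearest gene was Mpeg1, a macrophage-expressed pore protein, at a distance of 0.088, with 32.5 and 54.5 CPM in the aged and 99.3 and 16.1 CPM in the young MFP. It was followed by Ifitm1 at 0.101, Lsmem2 at 0.144, Tacr1 at 0.163 and H2-Q6, a class I gene, at 0.165. By the same measure H2-DMb1 lay at 0.41, H2-DMa at 0.50, Ciita at 0.66, H2-Oa at 1.58, H2-DMb2 at 1.59 and H2-Ob at 1.80. The 3 B cell-linked genes were thus the members least like the classical chains, and with 4 libraries this likeness is a description only.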

How the data were processed

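Raw read counts, whole numbers for each of 55487 genes, were deposited by the authors, made from rRNA-depleted, strand-marking libraries of MFP lysed whole. The submitters' processing notes name featureCounts, R 3.6.1, GRCm38 and hg38 without roles. The aligner and the strand setting of the counting are not given in the sources used here. Genes were kept by filterByExpr (22485), scaled by the trimmed mean of M values and tested with edgeR 4.0.16 (glmQLFit and glmQLFTest, age as the only term, R 4.3.3), with Benjamini-Hochberg adjustment over all genes tested and a threshold of 0.05. SE is the size of the log2 fold change over the square root of F. DESeq2 1.42.0 and other scalings and filters were alternatives. Scripts were tested on simulated data. Exon lengths and positions came from GENCODE M21, which held 55227 of the identifiers. Intervals and floors cover counting error only, since PCR reads without molecular identifiers are not independent molecules.

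The members, gene lists and tests were chosen with earlier results of these data known. The genes named are all members, genes of the lists of other class II genes, class II transcription factors and processing, of each other list the 2 most abundant per length and the largest change, and the 5 nearest in pattern. Ccl21a, Ifng and Dexi and Brd2 were named after their values or positions were seen.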

Additional observations from a re-analysis of the deposited data

How the results depend on the processing

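No member was called in any alternative run. DESeq2 called 845 genes in all, where edgeR called 0, and 2371 genes had an unadjusted p under 0.05 in edgeR. Changing the scaling or filter turned no member's direction. Scaling by total counts only moved the median of all genes to -0.22 and that of the members to -0.89. The shared replicate numbers did not pair the libraries (correlation of same-numbered deviations -0.48 across 22485 genes). A replicate block left 0 genes called and the members' median at -0.47, and turned H2-Aa to 0.0676, H2-Ab1 to 0.0306, H2-Eb1 to 0.13 and Cd74 to 0.0754. Pairing the numbers crosswise, a block added after seeing the data, also called 0 genes, with 0.0668, 0.0297, 0.13 and 0.0752 for the same genes. The other 6 members stayed lower in the aged MFP in both blocks. Crosswise they ran from -0.32 for H2-DMb1 (SE 0.38) to -1.97 for H2-Ob (SE 1.15). Leaving out 1 library at a time gave -1.34 to 1.54 for H2-Aa, -1.33 to 1.47 for H2-Ab1, -1.16 to 1.49 for H2-Eb1, -1.34 to 1.56 for Cd74, -2.60 to 0.39 for Ciita, -1.49 to 0.32 for H2-DMa, -1.20 to 0.63 for H2-DMb1, -5.17 to 1.78 for H2-DMb2, -4.97 to 2.63 for H2-Oa and -5.58 to 2.04 for H2-Ob. The highest value in each range is the fit without young replicate 1. The members' median ran from -1.41 to 1.51, the number without overlap from 0 to 10 and the number with an unadjusted p under 0.05 from 0 to 9. List medians ran from -0.34 to 0.0563 for class II transcription factors, 0.0665 to 0.40 for processing and turnover, -1.002 to 0.28 for the interferon gamma axis, -2.24 to 0.71 for costimulation and -0.41 to 0.34 for class I presentation. The cause was not tested. The mean log2 ratio of class II to pan-leukocyte markers stayed higher in the aged MFP, from 0.59 to 1.77 with 1 library left out. It depended on the marker list. Over the macrophage, B cell or T cell list instead, the ages overlapped, and over the dendritic cell list both aged libraries were higher.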
